A study of Mus musculus with 6 samples.

Results

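The 34 genes described here mark the endothelium, the cell layer that lines blood vessels, and were measured in duodenum of wild-type mice and of mice lacking the vitamin D receptor (VDR-null). They were listed by name as receptors, junction proteins, transcription factors and surface or secreted products of vascular endothelium. The list was drawn up with earlier results of these data known, and probe sets were to be chosen by their mean level over all arrays, the brightest being kept for a gene with several; no test rests on that choice. A gene was followed where the platform annotation paired a probe set with its symbol alone. That condition was met by 33 of the 34 genes out of 22180 in the whole table, and each of the 33 had 1 such probe set. Rasip1, which encodes a regulator of small GTPases at endothelial junctions, had its probe set paired with 2 symbols and is not described by values. Cd34, Ets1, Egfl7 and Dll4 also had a probe set paired with 2 symbols, which was not used for their values. Icam2, an intercellular adhesion molecule, was too dim to be tested, and the other 32 genes lay above the median of all values, 5.17, on all 6 arrays.

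The study compared 3 wild-type with 3 VDR-null samples, each of total RNA on an array of its own. All 6 came from mice aged 10 weeks on the C57Bl/6 strain background. Sex, diet, the targeted allele, the breeding of the controls and the layers of the gut that were sampled are not stated in the labels. The labels do not say that replicates came from separate animals, so p-values measure the spread between these samples. Endothelial markers were present together with those of epithelium, smooth muscle, fibroblasts and leukocytes.

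Vascular endothelium grows and is kept in place by a pair of signalling systems. Vascular endothelial growth factors (VEGFs) act through the receptors encoded by Flt1, Kdr and Flt4, and angiopoietins act through Tek, with Tie1 as its partner. VE-cadherin, encoded by Cdh5, joins neighbouring endothelial cells, and factors of the ETS and SOX families keep the endothelial programme running. In the small intestine, fenestrated capillaries run close beneath the absorptive epithelium of each villus and carry nutrients away.

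Sequences are shown for the 5 VEGF and angiopoietin receptors, because this family held both the members with the largest difference between the genotypes, Tek and Flt1, and a member with a small one, Tie1. Each is the 250 bases before the start site farthest upstream, 5′ to 3′ on the gene's own strand, from RefSeq on GRCm38.p6. Capitals mark CAGGAA or CCGGAA on either strand, which are flanked forms of the ETS core GGAA. Other copies of GGAA, as in the Flt1 and Flt4 windows, are left in small letters. The windows lie at chr4:94739039-94739288, plus strand (Tek), chr4:118489850-118490099, minus strand (Tie1), chr5:147726012-147726261, minus strand (Flt1), chr5:75978456-75978705, minus strand (Kdr) and chr11:49609429-49609678, plus strand (Flt4).
Tek: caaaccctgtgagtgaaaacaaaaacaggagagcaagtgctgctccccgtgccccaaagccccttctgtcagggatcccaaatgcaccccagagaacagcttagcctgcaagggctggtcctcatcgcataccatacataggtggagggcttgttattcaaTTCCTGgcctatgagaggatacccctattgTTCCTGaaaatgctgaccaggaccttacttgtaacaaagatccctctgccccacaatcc
Tie1: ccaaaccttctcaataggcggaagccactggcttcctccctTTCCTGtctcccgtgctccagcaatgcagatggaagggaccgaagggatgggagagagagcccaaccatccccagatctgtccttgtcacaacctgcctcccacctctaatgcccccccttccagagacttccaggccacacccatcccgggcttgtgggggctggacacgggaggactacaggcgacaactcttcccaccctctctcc
Flt1: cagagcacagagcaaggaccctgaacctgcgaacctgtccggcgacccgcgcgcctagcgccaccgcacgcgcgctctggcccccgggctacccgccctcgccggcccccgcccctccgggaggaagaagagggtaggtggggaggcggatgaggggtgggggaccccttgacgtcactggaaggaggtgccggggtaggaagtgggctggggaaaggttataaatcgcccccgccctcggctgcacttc
Kdr: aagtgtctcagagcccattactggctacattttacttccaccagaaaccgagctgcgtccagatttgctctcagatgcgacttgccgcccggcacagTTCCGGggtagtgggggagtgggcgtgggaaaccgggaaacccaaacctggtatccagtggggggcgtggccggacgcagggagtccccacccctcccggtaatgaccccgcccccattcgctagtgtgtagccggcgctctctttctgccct
Flt4: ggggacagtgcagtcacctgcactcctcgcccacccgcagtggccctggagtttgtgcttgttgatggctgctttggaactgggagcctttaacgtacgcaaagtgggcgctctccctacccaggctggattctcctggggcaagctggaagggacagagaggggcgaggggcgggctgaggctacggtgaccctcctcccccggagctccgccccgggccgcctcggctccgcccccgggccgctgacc
RefSeq windows were found for 15 of the 34 members and not for Tspan18, Mmrn2, Pecam1, Sox7, Plvap, Esam, Icam2, Sox17, Ptprb, Gpihbp1, Aplnr, Vwf, Ldb2, Nos3, Sox18, Angpt2, S1pr1, Ets1 or Cdh5. CAGGAA was present on at least 1 strand in 9 of the 15 windows (60%), namely those of Cd34, Clec14a, Egfl7, Emcn, Notch4, Rasip1, Robo4, Tek and Tie1, and in 25.4% of 27025 windows of the same length. CCGGAA was present in 1 of the 15, that of Kdr, and in 12.3% of all windows. The SOX core AACAAT was in 2 of the 15 (13.3%) and in 9.62% of all windows. The strings GGTCANNNGGTCA, GGTCANNNGTTCA, GTTCANNNGGTCA and GTTCANNNGTTCA, on either strand, were in none of the 15 windows and in 0.307% of all. They hold shortened vitamin D receptor half-sites, without the first base of each. Full half-sites spaced by 3 bases were therefore not searched for. All motif counts here are letter matches in short windows whose base composition differed. Median GC content was 58.4% for the members and 52% for all. Tek and Tie1 both carry the CAGGAA letters.

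Of the 32 tested members, 30 were lower on the VDR-null arrays and 2 were higher, with a median log2 difference (VDR-null minus wild-type) of -0.31. Over all 13174 genes tested the median was -0.026, with 56% of genes lower and 44% higher. Differences were small, the largest being Tek and Flt1, each 1.40-fold higher in wild-type duodenum, and 20 of the 32 were more than 1.2-fold higher there. None of the 32 passed limma's adjusted p of 0.05 (adjusted over all genes tested), and their adjusted p ran from 0.683, shared by 22 of them, to 0.999. Over all genes, limma placed 0 of 13174 past that threshold (0%). At an unadjusted p under 0.05 there were 11 of the 32 members, all lower. Of all genes 5.23% reached that level, with 3.03% lower and 2.2% higher in VDR-null duodenum. The 3 wild-type and 3 VDR-null values did not overlap in 11 members, again all lower. Among all genes 11.1% did not overlap, with 6.22% lower and 4.87% higher. These counts do not weigh as 32 separate observations, since the members were measured in the same 6 RNA samples and varied together. In a bulk sample, fewer endothelial cells and less RNA per endothelial cell cannot be told apart.

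**Figure D1:**
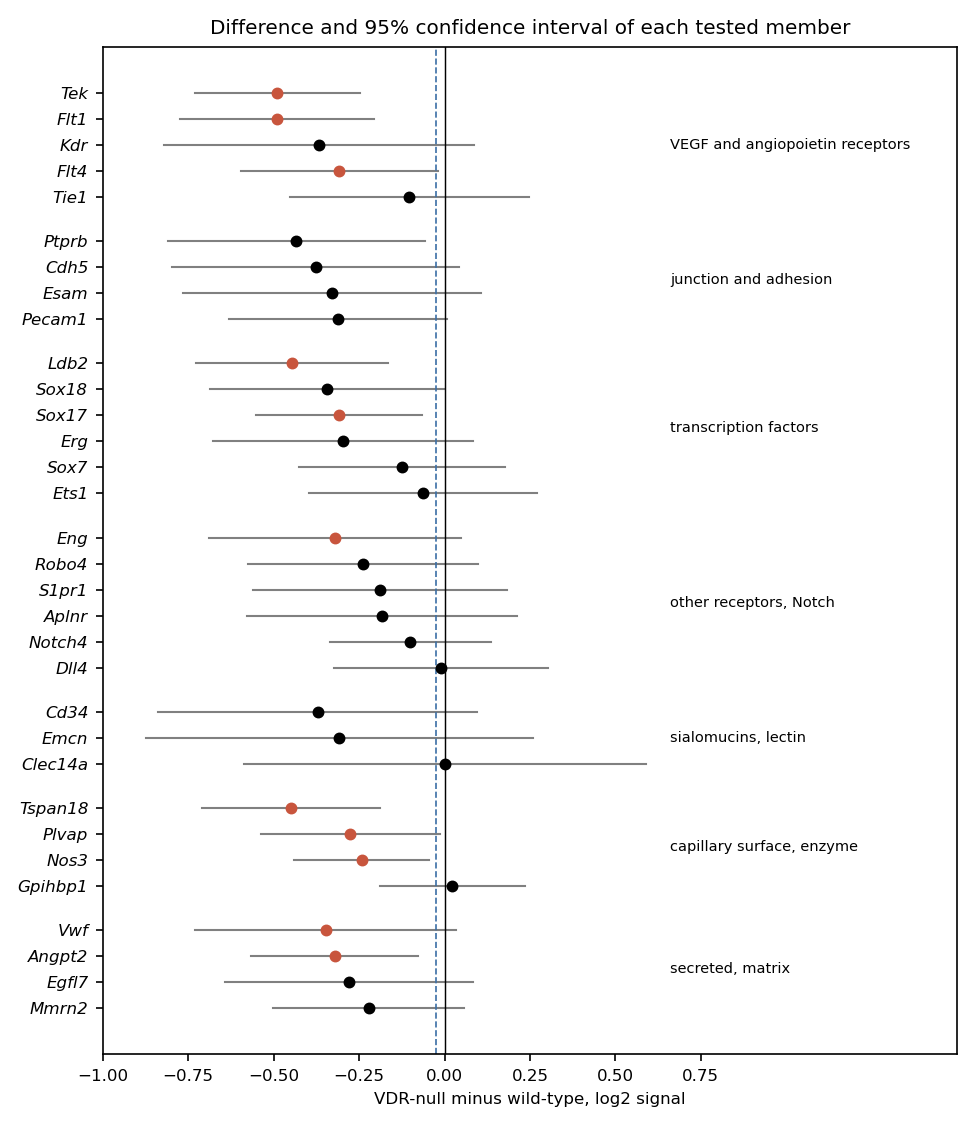
Log2 difference (VDR-null minus wild-type, horizontal axis) of the 32 tested members by role, with limma's 95% interval. Red points are the 11 members whose arrays did not overlap between genotypes, and the dashed line is the median of all genes tested, -0.026. All but Clec14a and Gpihbp1 lie below 0.

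Vdr itself, the gene labelled as missing, read 10.72, 10.95 and 11.11 on wild-type arrays against 10.99, 10.86 and 10.85 on VDR-null arrays. The labels do not say which stretch of Vdr the allele lacks, and these readings are no check of genotype. Array medians lay between 5.15 and 5.19. Wild-type replicate 1 and VDR-null replicate 1 stood apart from the others, as described below with the lists that show it.

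All 5 VEGF and angiopoietin receptors were lower on average in VDR-null duodenum, with a median difference of -0.37 on the log2 scale. Tek, the angiopoietin receptor, had log2 signals of 7.52, 7.32 and 7.35 in wild-type replicates 1 to 3, against 6.81, 6.89 and 7.03 in VDR-null ones. All 3 wild-type values lay above all 3 VDR-null values. The difference was -0.49 ± 0.10 (SE, n = 3 per genotype; 95% interval -0.73 to -0.25; adjusted p in limma = 0.683). Without wild-type replicate 1 it was -0.43, and it stayed between -0.55 and -0.36 under every alternative run. Tie1 encodes an orphan receptor that pairs with the product of Tek. It gave 7.06, 7.20 and 6.82 on wild-type arrays against 6.91, 6.72 and 7.15 on VDR-null arrays, with the groups interleaved. Its difference was -0.10 ± 0.15 (SE; 95% interval -0.45 to 0.25; adjusted p in limma = 0.821) and 0.0012 without VDR-null replicate 2. The intervals of Tek and Tie1 overlap between -0.45 and -0.25, and the difference between the genes was not tested.

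The VEGF receptors were lower to differing degrees. Flt1, a high-affinity receptor that also binds VEGF without strong signalling, read 7.98, 7.62 and 7.66 on wild-type arrays against 7.21, 7.23 and 7.36 on VDR-null arrays. Here too the groups did not overlap, and the difference was -0.49 ± 0.12 (SE; 95% interval -0.77 to -0.21; adjusted p in limma = 0.683). Kdr, the main signalling receptor for VEGF in blood endothelium, gave 9.10, 8.52 and 8.62 against 8.49, 8.09 and 8.56. Its wild-type replicate 1 was the highest value and VDR-null replicate 2 the lowest, and VDR-null replicate 3 lay above wild-type replicate 2. The difference in Kdr, -0.37 ± 0.19 (SE), was -0.19 without wild-type replicate 1. Flt4, a VEGF receptor of lymphatic as well as of fenestrated blood endothelium, read 7.58, 7.32 and 7.28 on wild-type arrays against 7.13, 6.93 and 7.20 on VDR-null arrays. Its groups were separate by a narrow gap, with a difference of -0.31 ± 0.12 (SE; 95% interval -0.60 to -0.020). Flt4 differed by -0.21 without wild-type replicate 1.

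**Figure D2:**
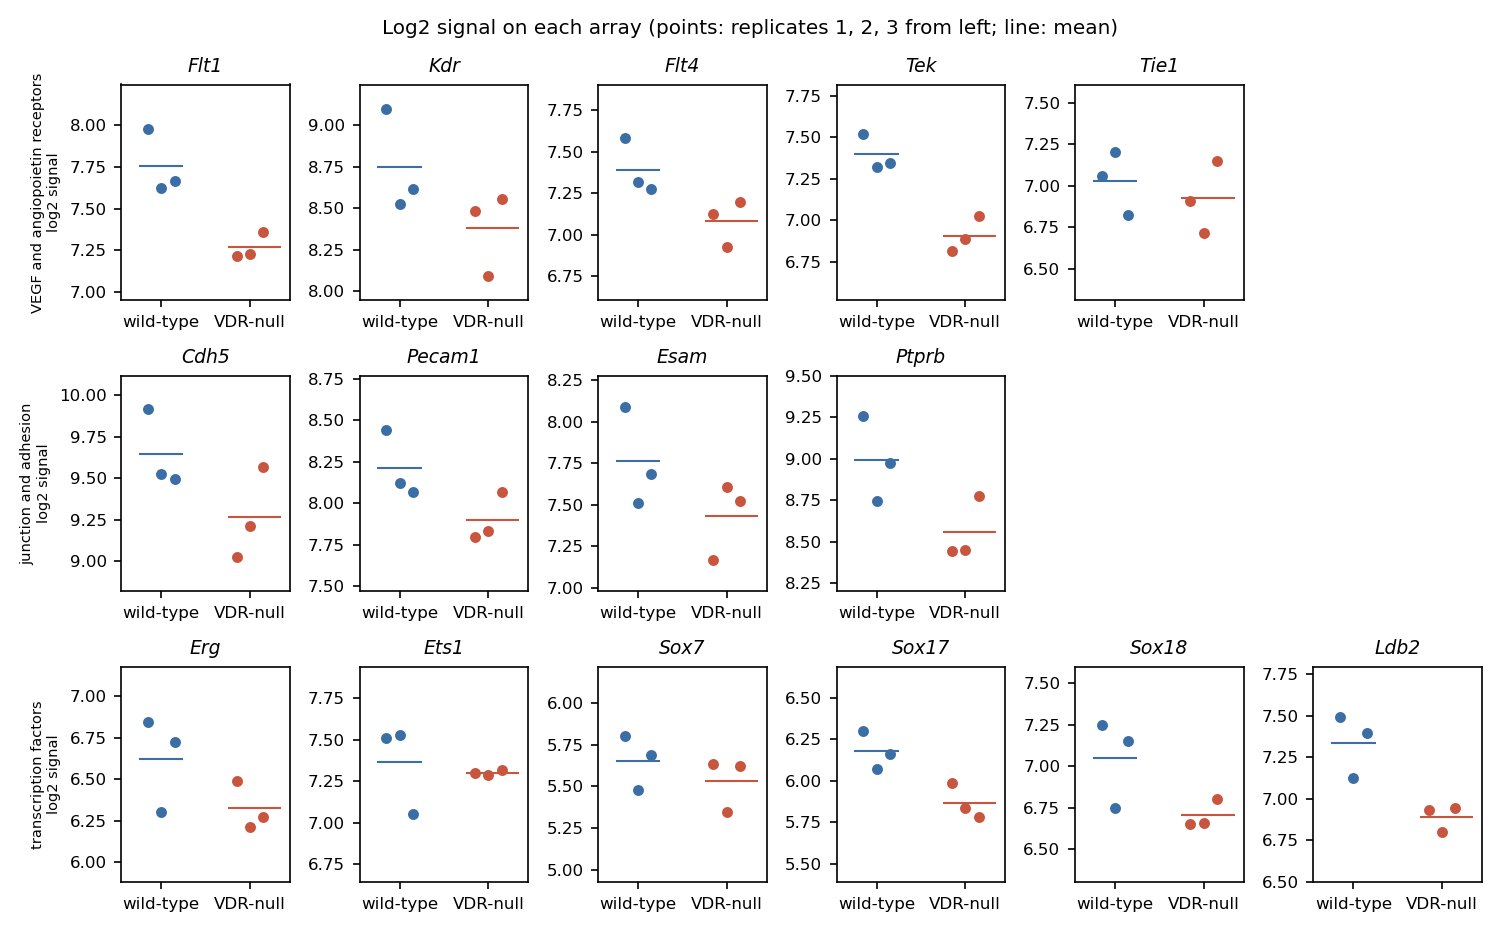
Log2 signal (vertical axes, each spanning an equal range) of the tested VEGF and angiopoietin receptors, junction genes and transcription factors. Blue points are wild-type and red points VDR-null arrays, replicates 1 to 3 from left to right, and the lines are means of 3. Tek, Flt1, Flt4, Sox17 and Ldb2 do not overlap between the genotypes.

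Junction and adhesion genes were lower by nearly the same amount as one another, from -0.43 to -0.31, with a median of -0.35 over the 4 tested. In none of the 4 were the genotypes separate. Cdh5, VE-cadherin of the adherens junction, read 9.91, 9.53 and 9.50 on wild-type arrays against 9.02, 9.21 and 9.57 on VDR-null arrays. VDR-null replicate 3 lay above wild-type replicates 2 and 3, and the difference was -0.38 ± 0.18 (SE; 95% interval -0.80 to 0.042; adjusted p in limma = 0.683). Cdh5 differed by -0.24 without wild-type replicate 1. Ptprb, the phosphatase VE-PTP that acts on VE-cadherin and on the Tek product, gave 9.26, 8.75 and 8.97 against 8.45, 8.45 and 8.77. VDR-null replicate 3 lay just above wild-type replicate 2, and the difference was -0.43 ± 0.16 (SE; 95% interval -0.81 to -0.057). Pecam1 (CD31), which leukocytes and platelets carry as well, read 8.44, 8.12 and 8.07 on wild-type arrays against 7.79, 7.83 and 8.07 on VDR-null arrays, a difference of -0.31 ± 0.13 (SE). The groups of Pecam1 met at 8.07, and it differed by -0.19 without wild-type replicate 1. Esam, an adhesion molecule of endothelial tight junctions, read 8.09, 7.51 and 7.69 against 7.17, 7.61 and 7.52. Its difference of -0.33 ± 0.18 (SE) was -0.032 without both replicate 1 arrays, and -0.16 without the wild-type one alone. Icam2 lay between 4.98 and 5.10 on all 6 arrays, under the brightness needed for a test. It pointed the other way, by 0.056, with separate groups.

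Transcription factors spread more widely than the junction genes, from -0.45 for Ldb2 to -0.063 for Ets1, with a median of -0.30. Ldb2, a cofactor that bridges LIM-domain proteins, read 7.49, 7.12 and 7.40 on wild-type arrays against 6.93, 6.80 and 6.94 on VDR-null arrays. The genotypes were separate, with a difference of -0.45 ± 0.12 (SE; 95% interval -0.73 to -0.16; adjusted p in limma = 0.683). Sox17, Sox18 and Sox7 make up the SOXF family, which acts in arterial and lymphatic specification. Sox17 gave 6.30, 6.07 and 6.16 on wild-type arrays against 5.99, 5.84 and 5.78 on VDR-null arrays, without overlap, a difference of -0.31 ± 0.10 (SE). Sox18 gave 7.25, 6.75 and 7.15 against 6.65, 6.66 and 6.80, so that wild-type replicate 2 lay among the VDR-null values, a difference of -0.34 ± 0.14 (SE). Sox7 gave 5.80, 5.48 and 5.69 against 5.63, 5.34 and 5.62, with wide overlap and a difference of -0.12 ± 0.13 (SE; 95% interval -0.42 to 0.18). Sox7 differed by -0.028 without VDR-null replicate 2 and by -0.051 without wild-type replicate 1. Within the SOXF family the intervals of all 3 genes overlap.

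The ETS factors differed from one another in their pattern over the arrays. Erg, which maintains endothelial identity, read 6.84, 6.30 and 6.72 on wild-type arrays against 6.49, 6.21 and 6.27 on VDR-null arrays. Wild-type replicate 2 lay among the VDR-null values, and the difference was -0.30 ± 0.16 (SE). In Erg it was -0.19 without wild-type replicate 1 and 0.042 with the mean of the smooth muscle genes as a covariate. Ets1, which lymphocytes also express, read 7.51, 7.53 and 7.05 against 7.30, 7.29 and 7.32, with wild-type values on both sides of the VDR-null ones. Its difference of -0.063 ± 0.14 (SE; 95% interval -0.40 to 0.27; adjusted p in limma = 0.876) turned to 0.050 with array weights and to 0.020 without wild-type replicate 2.

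Taking the role groups side by side, the mean deviation from the 6-array mean was 0.36, 0.11 and 0.057 on wild-type arrays 1 to 3 for the receptors, and -0.18, -0.32 and -0.031 on the VDR-null arrays. For the junction genes these means were 0.46, 0.0053 and 0.084, then -0.36, -0.19 and 0.013. For the transcription factors they were 0.30, -0.027 and 0.13, then -0.070, -0.21 and -0.11. All 3 groups were highest on wild-type replicate 1. The junction genes were lowest on VDR-null replicate 1, which had the lowest value in 4 of 4, while the receptors and transcription factors had their lowest mean on VDR-null replicate 2. The medians of the differences were -0.37, -0.35 and -0.30, and no test of a difference between role groups was made.

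**Figure D3:**
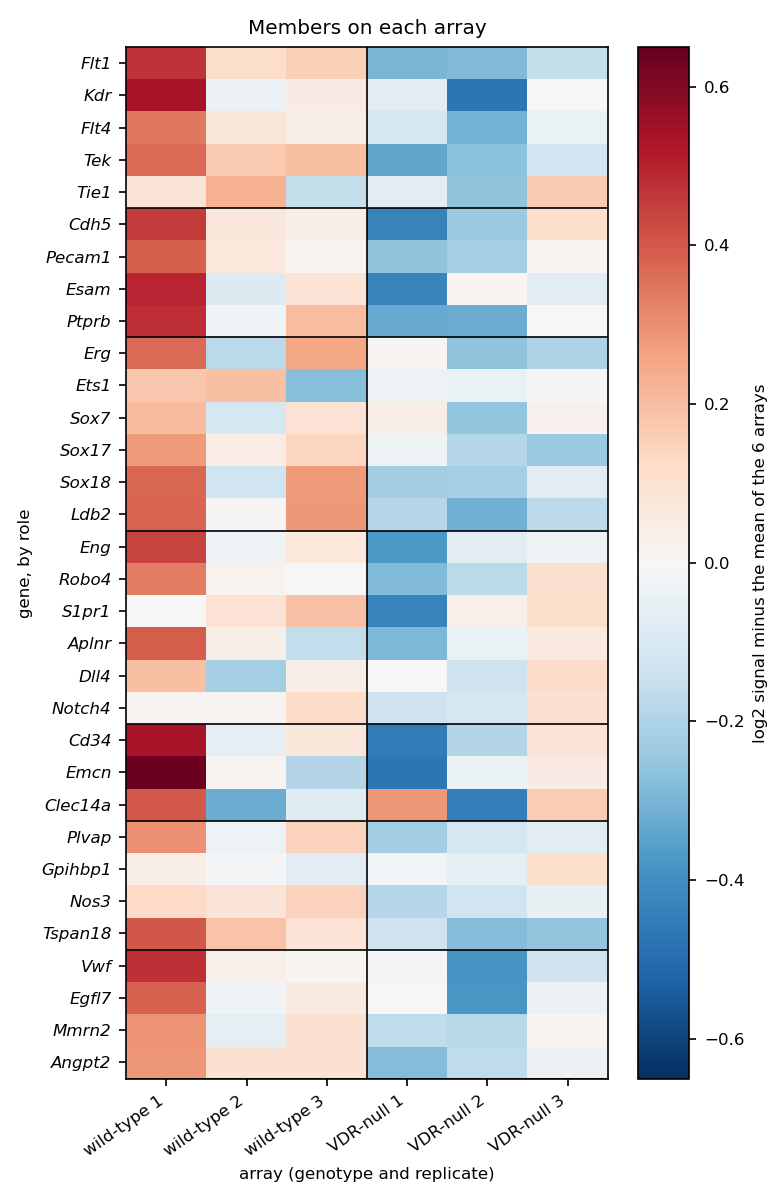
Log2 signal of each tested member minus its own mean over the 6 arrays (colour scale, red above and blue below), by array (columns) and role (blocks of rows, in the order receptors, junction, transcription factors, other receptors and Notch, sialomucins and lectin, capillary, secreted). Wild-type replicate 1 is the highest array in 26 of 32 members.

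Among the other receptors and the Notch genes all 6 were lower, by a median of -0.19. Eng, the endoglin co-receptor of the TGF-beta family, was separate by a narrow gap. Its lowest wild-type value was 9.15 and its highest VDR-null value 9.14. It differed by -0.32 ± 0.16 (SE; 95% interval -0.69 to 0.047), and by -0.18 without wild-type replicate 1. Robo4, a roundabout receptor of vessels, differed by -0.24 ± 0.14 (SE), and by -0.13 without that array. The sphingosine-1-phosphate receptor S1pr1 (-0.19 ± 0.16) and the apelin receptor Aplnr (-0.18 ± 0.17) overlapped between the genotypes. S1pr1 differed by -0.020 without VDR-null replicate 1 and Aplnr by -0.030 without wild-type replicate 1. Notch4 differed by -0.10 ± 0.099 (SE), and by -0.058 without VDR-null replicate 1. Dll4, the Notch ligand of arterial and sprouting endothelium, read 7.88, 7.46 and 7.72 on wild-type arrays against 7.68, 7.55 and 7.80 on VDR-null arrays. It is given in full because its difference was seen to be the smallest of these 6. Clec14a and Gpihbp1, described below, had near-zero differences as well. The difference in Dll4 was -0.011 ± 0.13 (SE; 95% interval -0.32 to 0.30; adjusted p in limma = 0.98), and 0.020 after cyclic loess.

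Surface products of capillaries gave both separate and level members. Tspan18, a tetraspanin, read 7.80, 7.59 and 7.49 on wild-type arrays against 7.27, 7.12 and 7.14 on VDR-null arrays. All of its wild-type values were higher, and the difference was -0.45 ± 0.11 (SE; 95% interval -0.71 to -0.19; adjusted p in limma = 0.683). Plvap, which forms the diaphragms of fenestrated capillaries, differed by -0.28 ± 0.11 (SE) and Nos3, endothelial nitric oxide synthase, by -0.24 ± 0.083, both with separate groups. Nos3 had the smallest spread within a genotype of all 32 members (within-genotype SD 0.055). Gpihbp1, which carries lipoprotein lipase to the capillary lumen, differed by 0.023 ± 0.090 (SE; 95% interval -0.19 to 0.24), and by -0.00067 with array weights.

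Of the sialomucins, Cd34, also a marker of blood progenitors and stromal cells, differed by -0.37 ± 0.20 (SE) and Emcn by -0.31 ± 0.24. Cd34 differed by -0.20 without wild-type replicate 1, by -0.062 without both replicate 1 arrays and by -0.029 with the brush border covariate. Emcn was highest on wild-type replicate 1, at 9.66, while the other 5 arrays ran from 8.55 to 9.08. Emcn differed by -0.067 without wild-type replicate 1 and by 0.092 without both replicate 1 arrays. Clec14a, a C-type lectin of vessels under remodelling, had the largest spread within a genotype (SD 0.38), and its difference was 0.00094 ± 0.25 (SE). In Clec14a the sign moved with the scaling, to -0.0028 after centring each array on its median.

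The 4 secreted or matrix products were all lower, by a median of -0.30. Angpt2, a ligand that competes for the Tek receptor, read 5.90, 5.71 and 5.72 on wild-type arrays against 5.33, 5.45 and 5.57 on VDR-null arrays. The groups did not overlap, with a difference of -0.32 ± 0.10 (SE; 95% interval -0.57 to -0.077), at levels close to the brightness filter. Vwf, von Willebrand factor, which megakaryocytes also make, differed by -0.35 ± 0.16 (SE) and was separate by a narrow gap, the lowest wild-type value being 7.40 and the highest VDR-null value 7.38. Vwf differed by -0.20 without wild-type replicate 1. Egfl7 (-0.28 ± 0.15) and the matrix protein Mmrn2 (-0.22 ± 0.12) overlapped between the genotypes, and without wild-type replicate 1 they differed by -0.16 and -0.13.

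Array by array, the mean deviation over the 32 members was 0.33, 0.0082 and 0.064 for wild-type replicates 1 to 3, against -0.19, -0.20 and -0.015 for VDR-null ones. Wild-type replicate 1 held the highest value in 26 of the 32 members, where it did so in 30.2% of all genes tested. VDR-null replicates 1 and 2 held the lowest value in 17 and 11 members, against 33.5% and 13.5% of all genes. VDR-null replicate 3 lay closer to wild-type replicates 2 and 3 than to the other VDR-null arrays. The median within-genotype SD of the members was 0.19, above the 0.15 of all genes tested, and it was larger among the wild-type samples in 22 of 32 members. Without wild-type replicate 1, 28 of the 32 were lower, by a median of -0.19, with 4 at an unadjusted p under 0.05 where 1.24% of all genes were lower at that level. The count at that level was 7 without VDR-null replicate 1 (1.96% of all genes) and 5 without VDR-null replicate 2 (1.67%). Without both replicate 1 arrays 26 were lower, by a median of -0.13, with 5 at that level against 1.57% of all genes, while 45.6% of all genes were lower. Without both arrays Tek, Flt1, Ldb2, Tspan18 and Sox17 differed by -0.38, -0.35, -0.39, -0.41 and -0.31, Nos3 by -0.21 and Erg by -0.27. These 7 were picked after their values were seen.

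To see which members departed from the rest, the members' median deviation on each array was subtracted from every gene. Tek and Flt1 remained lower in VDR-null duodenum on this scale, by -0.20 each, with separate groups. Dll4 (0.28), Gpihbp1 (0.31), Notch4 (0.19) and Mmrn2 (0.067) were separate in the other direction. Over all genes 30.8% were separate on this scale, 0.0835% lower and 30.7% higher, as the subtraction itself shifts every gene. These values describe the spread within the list and carry no test.

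Other genes of the same pathways were followed from lists kept apart from the members. Of 20 tested ligands and co-receptors 15 were lower, by a median of -0.18, and none passed the threshold. Vegfb, a ligand of the Flt1 receptor, was -0.43 ± 0.11 (SE; adjusted p in limma = 0.683) with separate groups, as was Nrp2, a neuropilin co-receptor (-0.27 ± 0.086). Slit2, a secreted guidance ligand, differed by -0.40 ± 0.16 with overlap. Efnb2 had the largest difference of the 5 higher genes, 0.49 ± 0.21 (SE) with overlap. Vegfa, the chief ligand of the Kdr receptor, which epithelium makes as well, also pointed that way. Vegfa, like Efnb2, is named after its values were seen. It read 8.21, 8.29 and 8.35 on wild-type arrays against 9.20, 8.58 and 8.20 on VDR-null arrays, a difference of 0.37 ± 0.24 (SE; 95% interval -0.19 to 0.94) in which VDR-null replicate 1 was the highest array.

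Junction partners split into 11 lower and 5 higher of 16 tested, with a median of -0.070. Jam2, a junctional adhesion molecule of endothelium, differed by -0.39 ± 0.14 (SE) with separate groups, and Heg1, which anchors junction complexes, by -0.29 ± 0.14. F11r, the junctional adhesion molecule that epithelium carries too, differed by 0.32 ± 0.16. Endothelial transcription regulators outside the members had 12 of 20 lower and a median of -0.046, near that of all genes. Hey2, a Notch target, differed by -0.32 ± 0.13 (SE), Ets2 by -0.20 ± 0.11 and Klf4, which also acts in epithelium, by 0.93 ± 0.48. Klf4 read 7.66, 8.34 and 8.03 on wild-type arrays against 10.11, 8.42 and 8.30 on VDR-null arrays, with overlap. VDR-null replicate 1 stood far above its other arrays.

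A further list of endothelial genes had 23 of 29 tested members lower, by a median of -0.13, with 4 lower and 1 higher at an unadjusted p under 0.05, where 3.03% of all genes were lower and 2.2% higher. Sparcl1, a matrix protein also made by muscle and stroma, differed by -0.45 ± 0.14 (SE) and Tm4sf1 by -0.48 ± 0.17, both with separate groups. Nostrin, a trafficking partner of endothelial nitric oxide synthase, differed by 0.41 ± 0.16. Lymphatic vessel genes were lower in 5 of 7 cases, by a median of -0.16, among them Mmrn1 (-0.33 ± 0.12) and Itga9 (-0.26 ± 0.094), both separate, and Reln (-0.27 ± 0.18). No gene of either list passed the threshold in limma. Mean deviations of the further endothelial list were 0.22, -0.039 and 0.042 on wild-type arrays 1 to 3, then -0.16, -0.092 and 0.031 on VDR-null ones. For the lymphatic list they were 0.21, 0.043 and -0.047, then -0.16, 0.0012 and -0.041. In both lists the genotypes stood furthest apart on the replicate 1 arrays.

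Markers of neighbouring cell types were also lower on average in VDR-null duodenum, with differing patterns over the arrays. Pericyte genes, of the cells that wrap capillaries, were lower in 7 of 7 tested cases, by a median of -0.28, led by Abcc9 (-0.50 ± 0.14, SE), Rgs5 (-0.47 ± 0.15) and Kcnj8 (-0.25 ± 0.098). Their summed signal ran from 11.94 to 12.38 on the log2 scale in wild-type and from 11.76 to 11.85 in VDR-null duodenum. Smooth muscle genes of the wall were lower in 14 of 14 cases, by a median of -0.33, led by Mylk (-0.41 ± 0.12), Cald1 (-0.40 ± 0.12) and Tagln (-0.42 ± 0.13), with sums of 13.73 to 14.25 against 13.66 to 13.72. Fibroblast and matrix genes were lower in 12 of 14 cases, by a median of -0.24, with Dpt (-0.51 ± 0.19), Col1a2 (-0.26 ± 0.11) and Loxl1 (-0.25 ± 0.11) at their head and sums of 12.86 to 13.20 against 12.48 to 12.90. Smooth muscle genes departed from the members on wild-type replicate 3, at 0.37 where the members stood at 0.064, on VDR-null replicate 3, at -0.18 against -0.015, and on wild-type replicate 2, at -0.14 against 0.0082. Fibroblast genes departed on VDR-null replicate 2, at -0.0096 against -0.20.

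Brush border and leukocyte markers lay differently, whereas cell division genes were lower on average, with a pattern over the arrays unlike that of the members. Enterocyte brush border genes were higher in VDR-null duodenum in 17 of 17 cases, by a median of 0.56, with Anks4b (0.68 ± 0.25, SE), Ezr (0.59 ± 0.25) and Ush1c (0.38 ± 0.16) at their head. Their deviation was lowest on wild-type replicate 1, at -1.02, where the members were highest. It was highest on VDR-null replicate 1, at 0.76 against 0.30 on VDR-null replicate 2, while the members stood at -0.19 and -0.20 on these. On VDR-null replicate 3 it was -0.11, below the 0.11 and -0.031 of wild-type replicates 2 and 3. Wild-type replicate 1 was the lowest array and VDR-null replicate 1 the highest in 17 of 17 brush border genes. Their sums ran from 13.66 to 14.90 in wild-type and from 14.67 to 15.50 in VDR-null duodenum. Cell division genes were lower in 17 of 17 cases, by a median of -0.26, among them Tyms (-0.34 ± 0.13), Mki67 (-0.42 ± 0.17) and Top2a (-0.36 ± 0.21), with sums of 13.13 to 13.59 against 12.83 to 13.40. Their mean deviation was 0.33 on wild-type replicate 1, as was that of the members. On VDR-null replicate 1 it was -0.41 against -0.19 for the members, and on VDR-null replicate 3 it was 0.17 against -0.015. On wild-type replicates 2 and 3 it was -0.11 and 0.16, and on VDR-null replicate 2 it was -0.15. For cell division genes VDR-null replicate 3 thus lay just above wild-type replicate 3. Leukocyte genes were higher in 11 of 13 cases, by a median of 0.11, with Cd3g (0.77 ± 0.38), Itgax (0.51 ± 0.28) and Cd3e (0.70 ± 0.39), and their sums of 11.08 to 11.89 and 11.57 to 11.90 overlapped. Of 12 red cell and platelet genes only Gp9 (0.30 ± 0.13) and Pf4 (-0.11 ± 0.19) could be tested, and the defining markers Ppbp and Itga2b were below the brightness filter.

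With the mean of the brush border genes as a covariate, the members' median difference was -0.11 and 26 of 32 remained below 0, and with the mean of the smooth muscle genes it was -0.18 with 27 below 0. Tek still differed by -0.36 with the brush border covariate, and Ldb2 by -0.22 with the smooth muscle one. Such a fit leaves 3 residual degrees of freedom, and its covariate differs between the genotypes itself. The part of these other cell types in the members' differences was not tested further.

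**Figure D4:**
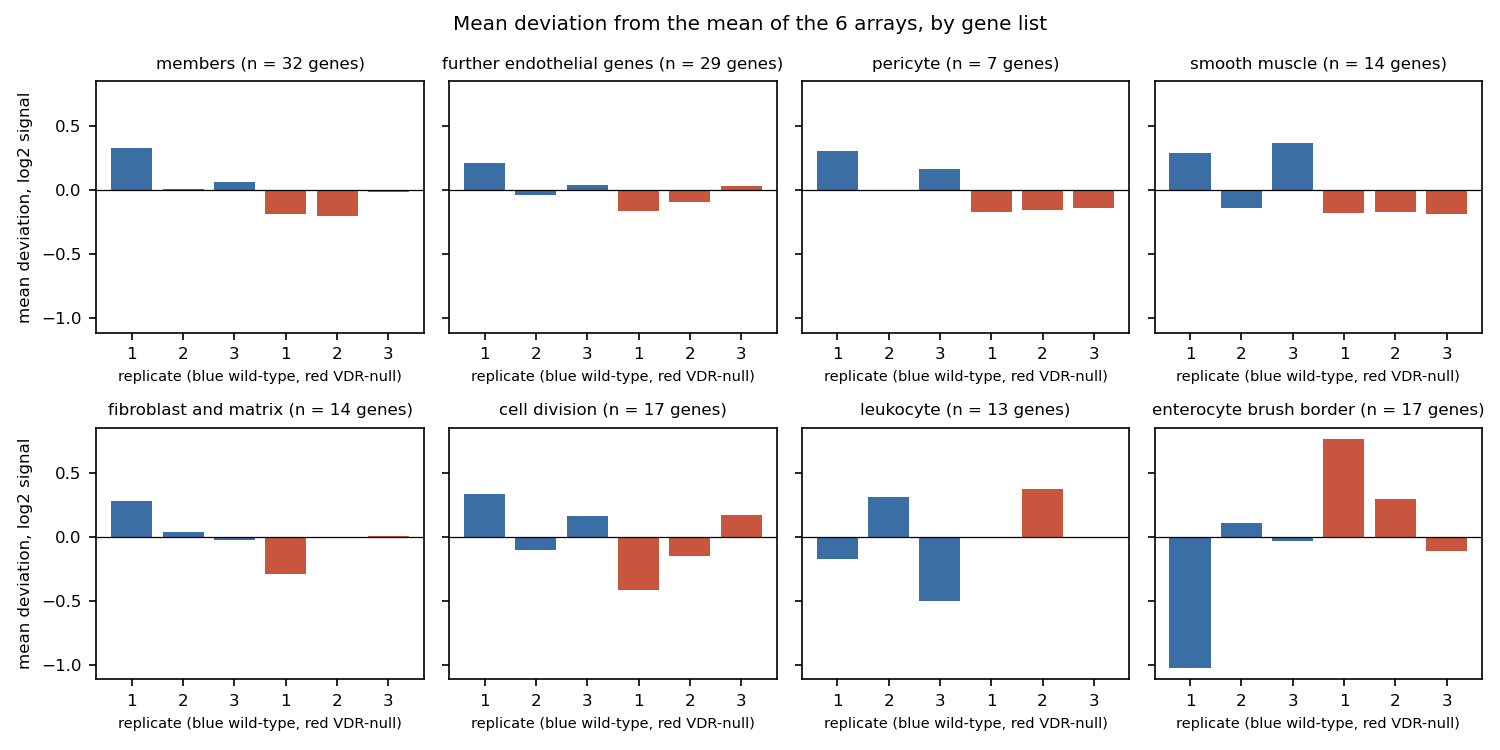
Mean deviation from the 6-array mean (vertical axis, log2 signal) over the tested genes of each list, by replicate, with blue bars for wild-type and red bars for VDR-null arrays and no error bars. The members share their high bar on wild-type replicate 1 with further endothelial, pericyte, smooth muscle, fibroblast and cell division genes, while brush border genes lie at -1.02 there.

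**Figure D5:**
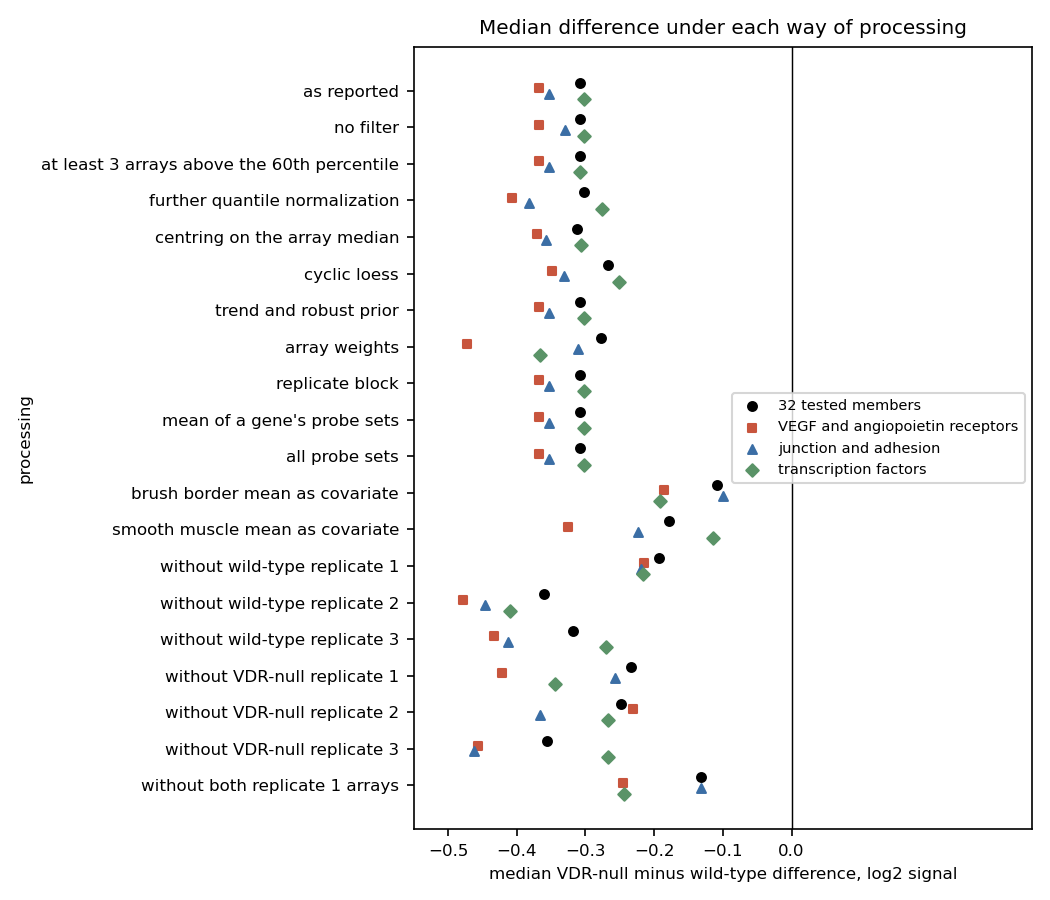
Median log2 difference (horizontal axis) of the tested members and of the 3 role groups under each way of processing (rows); black circles are all tested members (32, or 33 with no filter and 29 with the stricter one), red squares receptors, blue triangles junction genes and green diamonds transcription factors. All medians lie below 0, from -0.48 for the receptors without wild-type replicate 2 to -0.10 for the junction genes with the brush border covariate.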

How the data were processed

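Total RNA of 6 duodenum samples was hybridised to Affymetrix Mouse Gene 2.0 ST arrays. The deposited values are log2 signals that the authors made with RMA; the submitters' processing notes also name Affymetrix Expression Console, without versions. Of 41345 probe sets 23521 had 1 gene symbol in the platform annotation, 1814 several and 16010 none. RefSeq names (GRCm38.p6) changed no symbol. Testing required a signal over 5.17, the median of the whole table, on at least 3 arrays, which left 13174 of 22180 genes.

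The comparison of VDR-null with wild-type used R 4.3.3 and limma 3.58.1: a linear model without covariates, moderated by eBayes, two-sided, with p-values adjusted by Benjamini-Hochberg over the 13174 genes and called under 0.05. The script was tested on simulated data. Members and lists were chosen with earlier results of these data known, so list counts and medians carry no test. Values on every array were given for receptors, junction genes and transcription factors, and for members among the 5 smallest unadjusted p or 5 largest differences; other lists were named by up to 3 genes of smallest p. All 209 genes of the 12 other lists were looked up by symbol and 176 were tested. Depth does not apply to arrays, and their number limits the precision.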

Additional observations from a re-analysis of the deposited data

How the results depend on the processing

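No alternative placed a gene past the adjusted threshold: limma's count was 0 in the fit as reported and in each of the 19 alternatives. At an unadjusted p under 0.05 there were 689 genes as reported and between 133 (smooth muscle covariate) and 2718 (array weights) otherwise. Of the 32 members, 23 were lower in every alternative run. The members' median of -0.31 was -0.11 with the brush border covariate and -0.13 without both replicate 1 arrays. The receptors' median of -0.37 was -0.18 with the brush border covariate, the junction genes' -0.35 was -0.10 with it, and the transcription factors' -0.30 was -0.11 with the smooth muscle covariate. Leaving out 1 array at a time gave -0.36 to -0.19 for the members, -0.48 to -0.21 for the receptors, -0.46 to -0.22 for the junction genes and -0.41 to -0.22 for the transcription factors, the value nearest 0 always without wild-type replicate 1.

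Signs turned in 9 members, none past the threshold, and among them Erg, Emcn and Aplnr, at -0.30, -0.31 and -0.18 as reported, were not near 0. Array weights gave Ets1 0.050, Clec14a -0.27 and Gpihbp1 -0.00067. Cyclic loess gave Dll4 0.020, and centring on the array median gave Clec14a -0.0028. The brush border covariate gave Ets1 0.0091, Aplnr 0.077, Dll4 0.14 and Emcn 0.097. The smooth muscle covariate gave Erg 0.042, Sox7 0.053 and Dll4 0.22. Without both replicate 1 arrays Ets1 was 0.011, Aplnr 0.071, Dll4 0.082 and Emcn 0.092. Leaving out 1 array gave Tie1 -0.21 to 0.0012, Ets1 -0.22 to 0.020, Dll4 -0.12 to 0.084, Clec14a -0.16 to 0.22 and Gpihbp1 -0.028 to 0.060. The cause of these changes was not tested.

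With the replicate number as a block the members' median was -0.31 as before, with 7 of them lower at an unadjusted p under 0.05 where 1.47% of all genes were; with array weights there were 19, where 10.9% of all genes were lower at that level. Deviations from the genotype mean gave same-numbered arrays correlations of -0.62, 0.19 and -0.26 over the tested genes. VDR-null replicate 2 alone correlated best with its own number. The labels name no pairing, and deviations from means of 3 arrays cannot settle whether the numbers pair the samples. The 2 filters, further quantile normalization, the trend and robust prior and the use of all probe sets turned no member's sign. Every member with values had 1 single-symbol probe set, so averaging such probe sets left its values as they were. The 3 arrays per genotype limit the precision, and Icam2 was too dim to test.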
